A study of Xenopus laevis with 11 samples.

Results

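Chromosomes 8L and 8S are the L and S members of homeologous pair 8 of Xenopus laevis, and the accessible regions described here are the peaks on them whose summit lay more than 5 Mb from the chromosome start and from the last peak. These interior peaks numbered 4485 of the 58223 in the list, 2841 on 8L (72.8% of the 3904 peaks there) and 1644 on 8S (76.3% of 2154). The peaks left out were 505 at the start and 558 at the end of 8L and 159 and 351 on 8S. The nearest summits on either side of the limits were at 4816162 (out) and 5296703 (in) and at 130200895 (in) and 130427652 (out) on 8L, and at 4975338 (out) and 5015269 (in) and at 98828280 (in) and 99124915 (out) on 8S.

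Xenopus laevis is an allotetraploid, a species that arose when a pair of related frogs hybridised and kept both genomes. Each ancestral chromosome is therefore present as a long (L) and a short (S) homeolog, and many genes as an L and an S copy, while others are left on a single subgenome. ATAC-seq uses the Tn5 transposase to cut DNA that is not wrapped in nucleosomes, so that peaks often lie at active promoters and enhancers. In the blastula such sites open as the zygotic genome is activated, which maternally supplied pluripotency factors, among them products of pou5f3 and sox3 genes on pair 8, help to bring about.

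The data were 1 list of peaks called on all stage 9 libraries together. Animal caps, the ectoderm at the upper pole of the blastula that is still pluripotent, were cut from untreated wild-type embryos, and 2 caps entered each reaction. The 6 stage 9 libraries came from 4 replicates, collected on different days, and the 5 stage 8 libraries, which were not analysed here, from 3. Because the replicates were pooled before peaks were called, no value below has a replicate error and no test between conditions was possible. A peak list holds no RNA levels, so the tissue could not be checked by its expressed markers.

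Coverage was low. The median interior peak had 9 fragments at its summit on both chromosomes, a count with a 95% Poisson interval of 4.12 to 17.1, and the lowest had 5. Where no peak was called, open chromatin may have been missed at this depth. All intervals given cover counting error only, treat peaks as independent although they clump, and do not show how a value would vary between embryos. Gene positions were taken from RefSeq for assembly v10.1, as gene ends without strand or exons, so that whether a peak lay in a promoter, exon, intron or UTR was not determined. Peaks are called proximal when the summit was no more than 1 kb from a gene's start or end, and distal elsewhere.

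8L carried 22.7 interior peaks per Mb and 8S 17.5, a ratio of 1.29 (95% interval 1.22 to 1.38). The excess was larger in distal peaks, of which there were 13.3 per Mb on 8L and 9.03 on 8S (ratio 1.47, 1.35 to 1.60). Proximal peaks numbered 9.37 and 8.48 per Mb (ratio 1.11, 1.01 to 1.21). Thus 41.4% of the peaks on 8L and 48.4% of those on 8S were proximal. Among the 9 chromosome pairs the ratios of all and of distal peaks were the highest, against 1.00 to 1.24 and 0.983 to 1.30 in the other 8 pairs, while the proximal ratio was the fourth in order (1.02 to 1.18 elsewhere). The interval of the ratio of all peaks overlapped those of pairs 1, 3 and 9_10 (1.17 to 1.31 in pair 9_10). The interval of the distal ratio overlapped those of pairs 3 and 9_10. Pair 8 was chosen with its large gap already known, so that its rank is a description.

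Per gene the chromosomes were nearly level. 8L had 2020 protein-coding genes in the interior and 8S 1206, or 16.1 and 12.8 genes per Mb. There were 1.41 peaks per gene on 8L and 1.36 on 8S, a ratio of 1.03 (0.971 to 1.097), where the other pairs had 0.869 to 1.03. Much of this gene surplus on 8L consisted of uncharacterised genes with LOC numbers, 811 against 407, of which 17.02% and 25.6% had a proximal peak at an end (an end peak). Genes named on a single subgenome also added to it, 549 on 8L and 137 on 8S, of which 51.5% and 49.6% had an end peak. Genes with both copies were level, at 644 and 646. Per named protein-coding gene the ratio was 1.14 (1.07 to 1.21). Of all protein-coding genes, 41.6% had an end peak on 8L and 48.3% on 8S, beside 47.5% over the genome.

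The surplus on 8L was also not even in kind of place. Inside genes but over 1 kb from their ends, 947 peaks lay on 8L and 439 on 8S. Scaled to the amount of such sequence, these were 15.9 and 11.1 peaks per Mb (ratio 1.44, 1.28 to 1.61). At 10 to 50 kb from any gene the values were 11.5 and 6.38 per Mb (ratio 1.81, 1.44 to 2.27), and over 50 kb away 5.79 and 3.13 (ratio 1.85, 1.31 to 2.63). Within 1 kb of the ends of any protein-coding or lncRNA gene, LOC genes included, the order was turned. The inner side had 167 against 188 peaks per Mb (ratio 0.890, 0.796 to 0.996). The outer side had 99.9 against 117 (ratio 0.8502, 0.726 to 0.997). Among homeolog pairs, given below, the mean number of end peaks was higher at L. The part of gene make-up in this was not tested. In the space of 1 to 10 kb outside genes the ratio was 1.12 (0.946 to 1.32).

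Peaks on 8L were not much taller on the whole, but the tallest were more frequent there. The median fold enrichment over the control was 5.37 on 8L and 5.24 on 8S. Peaks whose −log10 q reached 10 or more made up 19.5% on 8L (554 peaks) and 16.2% on 8S (266). For peaks of 5 to 6 fragments at the summit the ratio of densities was 0.980 (0.842 to 1.14), and the ratio was 1.196 at 7 to 8, 1.34 at 9 to 11, 1.39 at 12 to 17 and 2.00 (1.63 to 2.46) at 18 fragments or more. Binned by fold enrichment the ratio did not rise steadily. It was 1.26 (1.09 to 1.48) under 4-fold, 1.13 at 4 to 5, 1.45 at 5 to 6 and 1.27 at 6 to 8. Peaks of 8-fold and over gave 535 on 8L and 264 on 8S (ratio 1.52, 1.31 to 1.77), with 1.03 to 1.31 in the other pairs. The share of sequence that reads map to uniquely was not known for either chromosome, and its part in these differences was not tested.

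**Figure D1:**
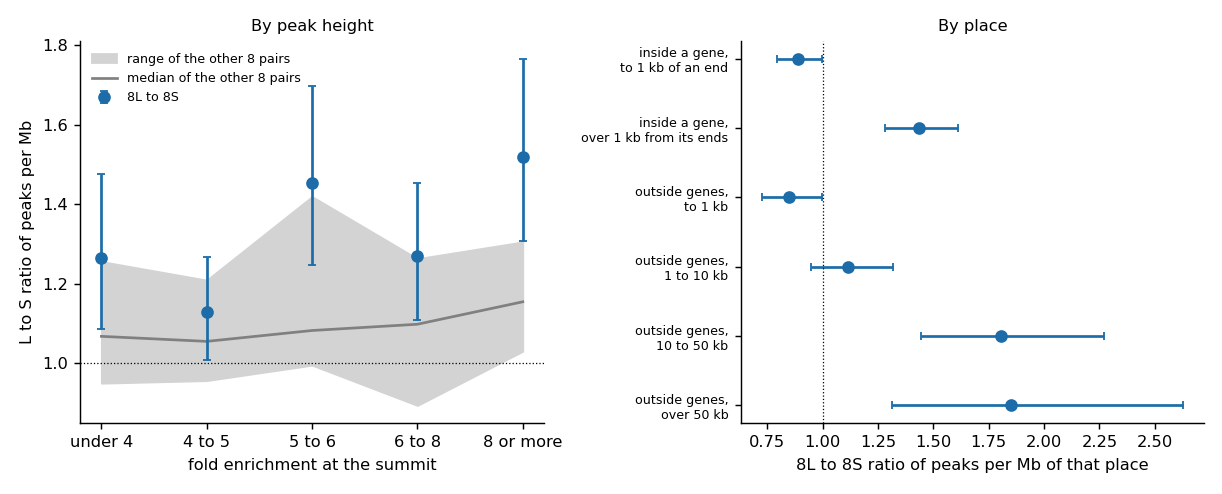
Left, L to S ratio of peaks per Mb by fold enrichment at the summit, for 8L and 8S (points, with 95% intervals of counting error) and for the other 8 chromosome pairs (band from lowest to highest, line at the median). Right, the 8L to 8S ratio per Mb of each kind of place (points, same intervals). The 8L to 8S ratio was 1.52 for peaks of 8-fold and over, and it exceeded 1.8 beyond 10 kb from genes but lay under 1 next to gene ends.

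The strongest peaks were taller on 8L. The highest had a fold enrichment of 35.2 with 221 fragments and lay at 8L:111669180 to 111669746, 6658 bp from the uncharacterised LOC121397172. It was followed by a peak of 25.2-fold inside LOC108698217, 16162 bp from its ends, and by one of 23.9-fold 133 bp outside LOC108699397. The fourth, of 23.4-fold at 8L:54231016 to 54231264, lay 128662 bp from klhl4.L, the nearest gene, and the fifth, of 23.2-fold, 272 bp inside an end of dach2.L, which encodes a transcriptional cofactor of the dachshund family. The 5 strongest on 8S reached 18.4-fold to 19.99-fold and all lay within 90 bp of a gene end. These genes were otud7b.S, a deubiquitinase gene, pnn.S, which encodes the splicing and desmosome protein pinin, the uncharacterised LOC108699734, slc1a5.S, an amino acid transporter gene, and eif5.S, a translation initiation factor gene.

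Peaks on 8L stood in larger groups. With summits chained at gaps of up to 10 kb, 8L had 1377 groups of on average 2.06 peaks (10.98 groups per Mb) and 8S 901 groups of 1.82 peaks (9.59 per Mb). Groups chained at a fixed gap grow with peak density, which was higher on 8L, and the part of density was not tested. Pair 9_10 had means of 2.13 on L and 1.88 on S, while in pairs 2, 4 and 7 the mean was larger on S. Groups of 5 or more peaks held 27.1% of the members on 8L and 23.2% on 8S. The largest on 8L held 27 peaks over 35.3 kb, all nearest to the uncharacterised LOC503674, of which 22 were distal. The next lay by LOC genes near 8L:19684457 (21 peaks) and around atp6v1d.L and eif2s1.L (19 peaks), the latter encoding the alpha subunit of initiation factor eIF2. A group of 15 peaks lay at ensa.L and mcl1.L, genes of a mitotic phosphatase inhibitor and of an apoptosis regulator. On 8S the largest groups held 17 peaks each, around ccn1l.S and lmo4.2.S and around tbc1d25.S and ftsj1.S.

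The next question was where along the chromosomes L exceeded S. Equal distances from the ends are not equal places, because the gene order of 8L and 8S differs by large rearrangements. Of the genes, 785 had exactly 1 copy on 8L and 1 on 8S, and 764 of them fell into 10 blocks of at least 10 genes in the same succession, 5 of which were inverted. The first large block of 8L, from mbd1 to rapgef1, lies at 0.90 to 8.21 Mb on 8L but at 26.2 to 32.3 Mb on 8S. The limit of 5 Mb thus left out most of it on 8L alone: 115 of its 485 peaks on 8L were interior and all 301 on 8S. A long inverted block in the right part of 8L lies in the first part of 8S. Without the mbd1 to rapgef1 block on either chromosome, the ratio of all interior peaks per Mb was 1.46 (1.37 to 1.56) and that of distal peaks 1.71 (1.57 to 1.88).

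**Figure D2:**
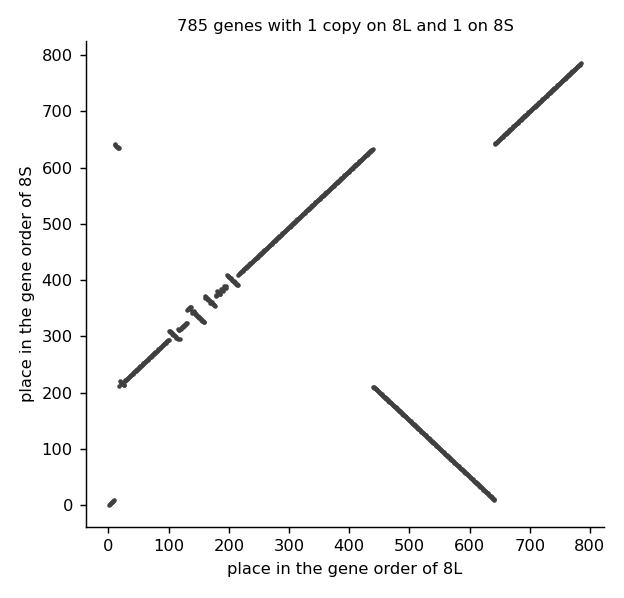
Each point is 1 of 785 genes with a single copy on 8L and on 8S, at its place in the order along 8L (horizontal) and along 8S (vertical). Rising runs keep the order and falling runs are inverted, among them the long block in the lower right.

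To compare like with like, peaks were counted between genes that neighbour each other on both chromosomes, from gene middle to gene middle. There were 553 such shared intervals in the interior of both, spanning 96.0 Mb of 8L and 80.4 Mb of 8S. They held 2150 peaks on 8L and 1232 on 8S, a ratio of 1.75 (1.63 to 1.87), or 1.46 (1.36 to 1.57) per Mb. The other 8 chromosome pairs gave 1.18 to 1.46 and 0.990 to 1.24, and the intervals of pair 8 overlapped those of no other pair in either measure. 8L had more peaks in 305 intervals (55.2%, beside 47.0% of shared intervals over all chromosome pairs), 8S in 103 (18.6%, beside 26.9%), and 145 were equal. A lead of 5 peaks or more was held by 8L in 75 intervals (9.61% over all pairs) and by 8S in 5 (2.27% over all pairs). Outside shared intervals 8S was the denser, with 412 peaks in 13.5 Mb (30.4 per Mb) against 691 in 29.4 Mb on 8L (23.5 per Mb), which includes 8S sequence whose counterpart lies within 5 Mb of the start of 8L.

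The lead of 8L was spread over many intervals. The net difference was 918 peaks, and the 10 intervals with the largest lead gave 200 of them (21.8%). Without these the ratio was 1.62 (1.51 to 1.75). Intervals in the same order on both chromosomes had a ratio of 1.65 and inverted ones 1.89. Among the 297 intervals whose lengths differed by at most 25% the ratio was 1.52 (1.38 to 1.67). Over all shared intervals, distal peaks numbered 1204 on 8L and 608 on 8S (ratio 1.98, 1.79 to 2.19). Proximal peaks in them numbered 946 and 624 (ratio 1.52, 1.37 to 1.68). Per Mb these ratios were 1.66 and 1.27, with 0.994 to 1.30 and 0.982 to 1.16 in the other chromosome pairs.

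The lead in number was largest where 8L had more annotated genes, but per Mb it was not. The 203 intervals with more genes on 8L held 1125 and 516 peaks (ratio 2.18, 1.96 to 2.42), or 1.41 per Mb. The 301 with equal gene numbers held 816 and 559 (ratio 1.46, 1.31 to 1.63), or 1.49 per Mb, and the 49 with more genes on 8S 209 and 157 (ratio 1.33, 1.08 to 1.65), with a ratio per Mb between 1.21 and 1.86. In the 233 intervals with no other gene between the neighbours on either chromosome, distal peaks numbered 295 on 8L and 170 on 8S (ratio 1.74, 1.43 to 2.11) and proximal peaks 207 and 198 (ratio 1.05, 0.856 to 1.28). Per Mb, the distal ratio in these intervals was 1.76, with 1.02 to 1.31 in the other chromosome pairs, and the proximal ratio 1.06, with 0.844 to 1.07 elsewhere. In this class the interval of the distal ratio thus excluded 1 and that of the proximal ratio did not, whereas over all shared intervals both excluded 1.

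**Figure D3:**
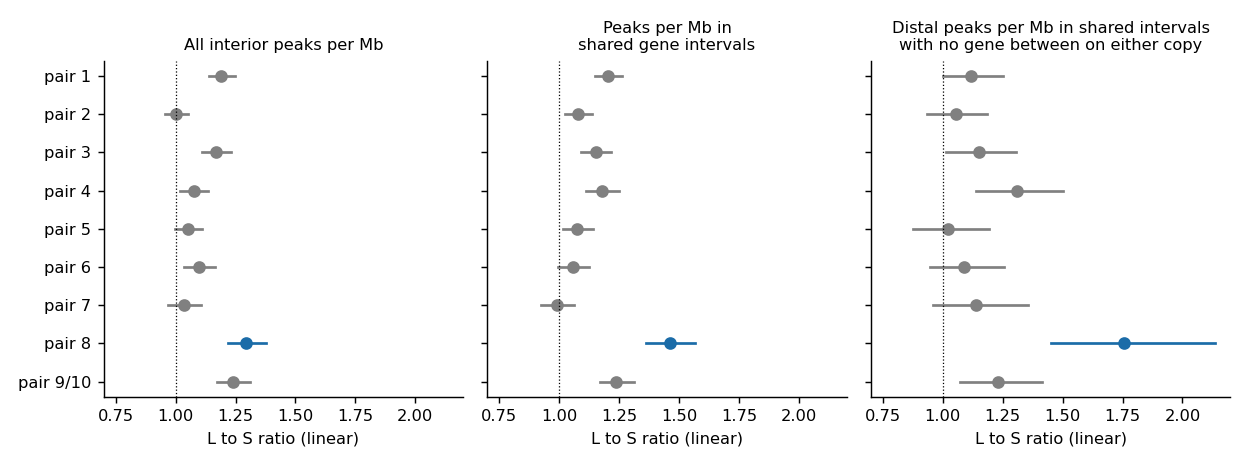
L to S ratios in the 9 chromosome pairs (points, with 95% intervals of counting error), for all interior peaks per Mb (left), peaks per Mb in shared gene intervals (middle) and distal peaks per Mb in shared intervals with no gene between (right), all on linear axes. Pair 8, in blue, had 1.29, 1.46 and 1.76, the highest point in each panel.

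Along 8L the ratio was highest at 20 to 40 Mb. The difference in number, not scaled to length, was largest from 60 to 100 Mb, at 105 to 110 peaks per bin. With shared intervals binned by 10 Mb of 8L, 8L had more peaks in 13 of 13 bins. The shared intervals covered unequal lengths of 8L per bin, at least 7.91 Mb in each bin from 60 to 100 Mb. They covered 4.64, 4.36 and 4.14 Mb at 0 to 10, 30 to 40 and 100 to 110 Mb. The differences there were 80, 80 and 73 peaks. They covered 8.43 and 9.79 Mb at 40 to 50 and 50 to 60 Mb, where the differences were 37 and 45. Where the difference per covered Mb was largest was not tested. The bin of 20 to 30 Mb held 64 peaks on 8L and 18 on 8S (ratio 3.56, 2.08 to 6.38), and between 30 and 40 Mb 115 and 35 (ratio 3.29, 2.23 to 4.94), where the ratio per Mb reached 3.81 (2.59 to 5.73). From 40 to 110 Mb the ratio per Mb ran from 1.252 to 1.66. The bin of 10 to 20 Mb was nearly level in its shared intervals, with 137 and 127 peaks (per Mb 1.03, 0.803 to 1.32). These covered 6.46 Mb of 8L, while 10 to 20 Mb of 8L held 286 interior peaks in all. The group of 21 peaks near 8L:19684457 lay outside the shared intervals. With bins of 5 Mb, 8L had more peaks in 22 of 23. The exception was 15 to 20 Mb, with 28 peaks on 8L and 38 on 8S (ratio 0.737, 0.436 to 1.23). In the last bins, 110 to 120 and 120 to 130 Mb, 8L had 161 against 94 (ratio 1.71, 1.32 to 2.23) and 98 against 49 peaks (ratio 2.00, 1.41 to 2.88), yet per Mb the ratios were 0.992 (0.764 to 1.29) and 0.902 (0.634 to 1.30), since the intervals are longer on 8L. These same 20 Mb of 8L were rich in genes and poor in peaks per gene. The bins held 220 and 257 protein-coding genes and 0.736 and 0.669 peaks per gene, against 1.01 to 2.74 in the bins before. Per Mb they held 16.2 and 17.2 peaks, within the 14 to 34.5 of the bins before. Without the block from arhgap5 to nectin4, which takes the far end of both chromosomes, there were 1.60 peaks per gene on 8L and 1.39 on 8S (ratio 1.15, 1.07 to 1.23).

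**Figure D4:**
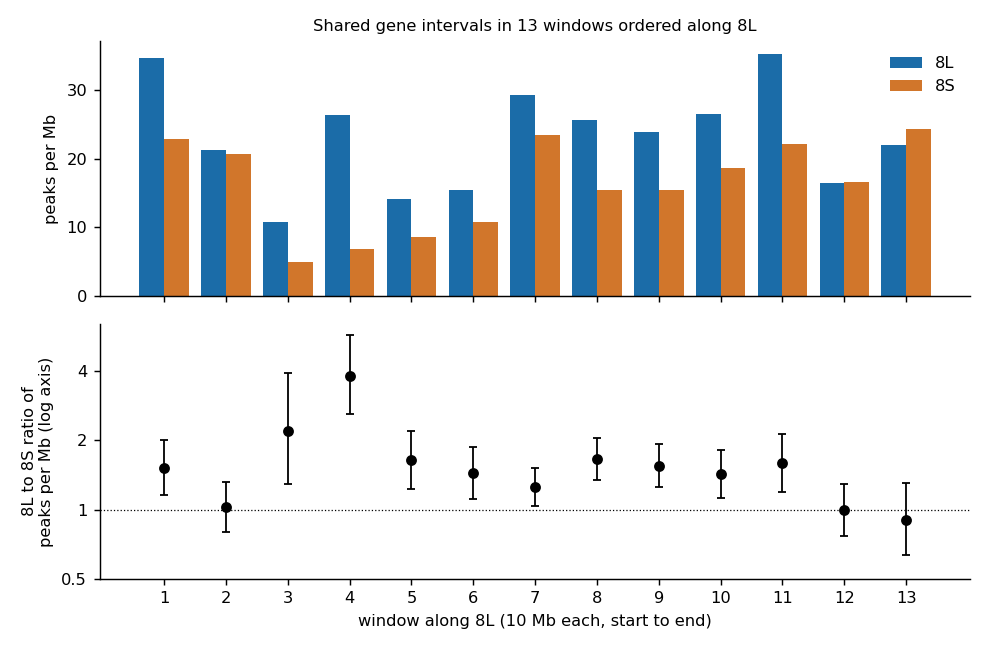
Top, peaks per Mb on 8L (blue) and 8S (orange) in shared gene intervals, in 13 windows of 10 Mb ordered along 8L. Bottom, their ratio per Mb on a log axis with 95% intervals of counting error. Windows 3 and 4 had the highest ratios per Mb, 2.195 and 3.81, and windows 2, 12 and 13 lay near 1.

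By block, the ratio of peak numbers was highest from ndufa8 to cox7b (20.7 to 36.2 Mb of 8L, 43.2 to 53.0 Mb of 8S), with 226 and 63 peaks, a ratio of 3.59 (2.70 to 4.82) or 2.27 per Mb. This is a sparse part of both chromosomes, at 14.6 and 6.42 peaks per Mb. The neighbouring inverted block from zbtb33 to stag2 held 79 and 28 peaks (ratio 2.82, 1.81 to 4.51), or 3.42 per Mb. The long block from gab3 to timm50 had 627 against 422 peaks, or 1.42 per Mb. With all peaks of a block counted, also those beyond the limit of 5 Mb, a single block had more on 8S. This was the block from zbtb26 to lmx1b.1, with 24 and 36 (ratio 0.667, 0.380 to 1.15). It holds nek6, lhx2 and dennd1a, which recur below. By interior peaks alone the block from mbd1 to rapgef1, cut by the limit on 8L, also had more on 8S, 115 and 301. Per Mb the blocks from fibcd1 to sptan1 (0.985, 0.639 to 1.53) and from ccdc22 to fam102a (0.999, 0.532 to 1.91) were level.

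The shared interval with the largest difference lay between abo.6, a glycosyltransferase gene, and ralgds (8L:7187114 to 7502777), and had 35 peaks on 8L and 2 on 8S. It spans 316 kb on 8L and 108 kb on 8S, and 14 of the 35 peaks were nearest to LOC108698217, a gene between the neighbours on 8L. As abo.6 is 1 of several like-named genes, its L and S copies may not correspond. Between foxo4, a forkhead factor gene, and snx12, a sorting nexin gene, 8L had 18 peaks in 430 kb and 8S had 0 in 65.4 kb. The 8L interval (8L:35294014 to 35724232) holds slc7a3.L, a cationic amino acid transporter gene, which had 5 of the peaks, up to 13.5-fold, and 4 were nearest to foxo4.L. The S interval has no gene between.

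The interval from max to cadm3 had 28 peaks in 3501 kb of 8L and 5 in 1087 kb of 8S, and is filled with LOC genes on both. Between gchfr and chp1 there were 49 and 24 peaks in intervals of like length, 632 and 574 kb, and LOC503674 took 27 of the 49. dll4.L, the gene of a Notch ligand, had 7, spint1.L, a protease inhibitor gene, had 6 and ino80.L, a chromatin remodeller gene, had 3. From tmem121 to cyp2c8.1 there were 38 and 17, including the strongest peak of 8L.

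The intervals that went the other way were fewer and smaller. From rxrb to pbx2, in the major histocompatibility complex (MHC) region, 8L had 5 peaks in 1059 kb and 8S 14 in 362 kb (8S:80630546 to 80992840). On 8S this interval holds brd2.S, a bromodomain gene with 9 of the peaks, and psmb9.S, an immunoproteasome gene with 0 within 10 kb. On 8L it holds psmb8.L, tap1.L and tap2.L, genes of antigen processing and peptide transport, each with 0 peaks within 10 kb. Between ier5l and ntmt1 there were 4 and 10 peaks, between dennd1a and lhx2 1 and 7 in 303 and 337 kb with no gene between, and between hspa5, an endoplasmic reticulum chaperone gene, and gapvd1 2 and 7.

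Gene by gene, 576 homeolog pairs had both copies in the interior. Whether a peak stood at a gene end was mostly shared: 297 pairs (51.6%, beside 52.4% over all chromosome pairs) had an end peak at both copies and 155 (26.9%, beside 27.7%) at neither. The L copy alone had one in 69 pairs (12.0%, beside 11.2%) and the S copy alone in 55 (9.55%, beside 8.64%), a difference of 2.43 percentage points whose interval of -1.53 to 6.27 includes 0. The difference was larger among peaks of at least the median fold enrichment, at 7.99 points with an interval of 3.49 to 12.2 that excludes 0. Among pairs with copies of like length (within 5%) it was 8.33 points, with an interval of -3.48 to 17.7. By number of end peaks, L copies had on average 0.977 and S copies 0.835. The L copy had more of them in 156 pairs and the S copy in 101.

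Counted within 10 kb of the gene, the copies differed more. The L copy had more peaks in 256 pairs (44.4%, beside 39.3% over all chromosome pairs), the S copy in 133 (23.1%, beside 29.9%), and 187 were equal. The difference of 21.4 percentage points (14.7 to 27.7) compares with 1.252 to 17.7 in the other 8 pairs. L copies had on average 2.37 peaks within 10 kb and S copies 1.67, and 2.56 and 1.46 distal peaks within 50 kb. The S copy was the longer in 352 pairs and the L copy in 224, and the part of gene length in these counts was not tested. A lead of 5 peaks or more was found in 25 pairs at L (4.34%, beside 3.49%) and in 1 at S (0.174%, beside 1.80%).

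**Figure D5:**
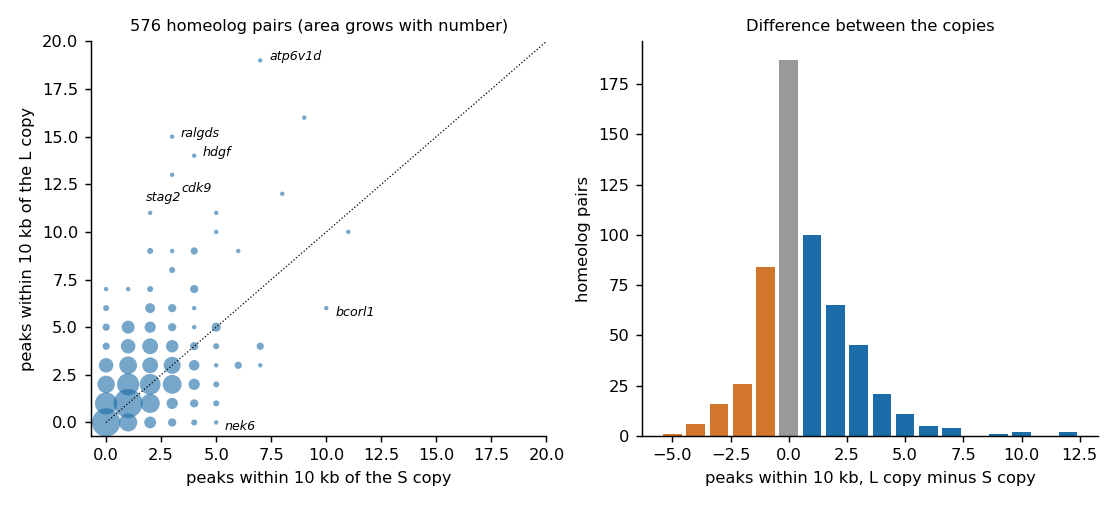
Left, peaks within 10 kb of the S copy (horizontal) and the L copy (vertical) of 576 homeolog pairs, with point area growing with the number of pairs and the dotted line marking equal counts. Right, the number of pairs at each difference, L minus S, in blue where L and in orange where S had more. L had more in 256 pairs and S in 133, and differences of 5 or more occurred 25 times towards L and 1 time towards S.

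The widest differences towards L were at atp6v1d and ralgds. atp6v1d, which encodes a subunit of the proton pump of acidic vesicles, had 19 peaks near atp6v1d.L and 7 near atp6v1d.S. Its strongest peak on 8L, at 8L:112631561 to 112631999 inside the gene, was 15.5-fold with 31 fragments, against 5.66-fold with 9 at atp6v1d.S. The L and S genes are 17376 and 16314 bp long. ralgds, which encodes an activator of Ral GTPases, had 15 and 3, 0 of them within 1 kb of an end of ralgds, and 11.9-fold was the highest at L and 5.91-fold at S.

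hdgf, a growth factor gene, had 14 and 4 peaks, while its tallest peaks were alike, 15.04-fold with 30 fragments and 14.8-fold with 23. cdk9, which encodes the kinase that releases paused RNA polymerase II, had 13 and 3, and its neighbour sh2d3c, a signalling adaptor gene, 16 and 9. On 8L, 9 peaks were counted for both neighbours. stag2, which encodes a subunit of cohesin, had 11 and 2 peaks. The 11 had 9 to 14 fragments each, and most of them lay by 1 end of the gene between 8L:40084438 and 8L:40090957. The annotated stag2 genes differ in length, 65778 bp on L and 131364 bp on S.

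arhgef11, which encodes a guanine nucleotide exchange factor, had 9 and 2 peaks. max, which encodes the DNA-binding partner of MYC, also had 9 and 2. At max.L 3 peaks were tall, 17.9-fold with 30 fragments at the gene end and 15.04-fold and 14.3-fold inside the gene, and at max.S the end peak was 8.38-fold with 15 fragments.

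Towards S the differences were smaller. nek6, a mitotic kinase gene, had none called at L and 5 at S, of which the strongest was 10.5-fold with 16 fragments. bcorl1, which encodes a corepressor, had 6 and 10, and its strongest peaks were 11.9-fold at L and 11.0-fold at S. anp32e, a histone chaperone gene, had 3 and 7, but the strongest peak was at L, 20.3-fold with 32 fragments against 13.1-fold with 26. lhx2, a LIM homeobox gene of the forebrain, had 0 and 4, up to 9.06-fold, and meis3, a homeobox gene of the hindbrain, had 0 and 4, up to 11.4-fold with 18 fragments. ncs1, which encodes a neuronal calcium sensor, had 1 and 5 and sema3fl, a semaphorin gene, 1 and 5, all below 6-fold. bicra, which encodes a subunit of a SWI/SNF chromatin remodelling complex, had 4 and 7, and its strongest was at L (14.3-fold against 11.6-fold).

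In the interior 549 protein-coding genes were named on L alone and 137 on S alone, and 51.5% and 49.6% of them had an end peak, beside 64.3% and 62.4% of genes with both copies. Members nearest to such genes numbered 710 on 8L (25.0% of its members) and 176 on 8S (10.7%), while the mean number of peaks within 10 kb of such a gene was 1.77 on 8L and 1.99 on 8S. An unnamed copy under a LOC number could remain on the other chromosome, which was not examined. On 8L the leading genes by peaks within 10 kb were pabir2.L with 15, plekhg3.L with 10, rcor1.L, which encodes a corepressor of the REST complex, with 10, dlc.L, a Notch ligand gene, with 9, tubb.L, a beta tubulin gene, with 9 and cdc42bpb.L, a kinase gene, with 8. On 8S they were ftsj1.S, a tRNA methyltransferase gene, with 14, vps18.S, a gene of vesicle tethering, with 12, brd2.S with 9 and nrarp.S, which encodes a feedback inhibitor of Notch, with 9.

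Of the 4 pairs of pluripotency and early activator genes with both copies in the interior, L had more peaks in 2 and S in 2, with 18 and 14 peaks in all, beside 44.4% and 23.1% of all pairs of chromosome pair 8. Within 10 kb, sox3.L had 4 peaks and sox3.S 7, with 14.9-fold and 24 fragments at the strongest of sox3.L and 8.57-fold and 15 fragments at sox3.S. pou5f3.3.S and pou5f3.2.S had 13 each and pou5f3.1.S 5, at 8S:27577658 to 27608214, whereas the L copies lie within 5 Mb of the start of 8L and are not among the peaks described. The 13 were the same peaks, 1 group at 8S:27577907 to 27590073 counted for both neighbours. Counted regardless of the limit of 5 Mb, pou5f3.3.L, pou5f3.2.L and pou5f3.1.L had 9, 10 and 14, in windows that overlap, so that a peak can be counted more than once. otx2, a head and pluripotency homeobox gene, had 9 peaks at L and 4 at S, and nr6a1, the germ cell nuclear factor gene, 5 and 1.

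In signalling, 9 of 10 genes on 8L and 7 of 8 on 8S had an end peak (beside 47.5% of protein-coding genes over the genome) and 8 and 7 a distal peak within 10 kb (beside 39.4%). Over the genome, 74.7% of the genes of this list had an end peak and 76.7% a distal peak within 10 kb. bmp4, the ventral and epidermal ligand gene, had 4 peaks at L and 7 at S, gsc, the organizer gene goosecoid, 4 and 3, and fgf13 3 and 1. notch1.S had 6 and wnt11b.L, a gene of the dorsal Wnt signal, 5. Of the 5 pairs in this group L had more in 2 and S in 2. Over all homeolog pairs of chromosome pair 8 these shares were 44.4% and 23.1%. The ectodermal and neural group held few genes of pair 8, among them six6, an eye field gene, with 5 at L and 0 at S.

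Among chromatin genes, end peaks stood at 17 of 22 on 8L and 13 of 16 on 8S (beside 47.5% of protein-coding genes and 82.0% of the genes of this list over the genome), and in 11 pairs L had more in 6 and S in 2 (beside 44.4% and 23.1% of the pairs of chromosome pair 8). Besides stag2, the 6 included hmgb3, a high mobility group gene, with 11 and 5, phf8, a histone demethylase gene, with 7 and 2, and wdr5, a gene of H3K4 methylation complexes, with 6 and 3. setdb1, which encodes an H3K9 methyltransferase, had 0 and 2. In the wider transcription factor families, of 26 pairs L had more in 7, S in 8, and 11 were equal, with 68 and 66 peaks in all. Beside these stand the same 44.4% and 23.1% of the pairs of chromosome pair 8, and 32.5% that were equal. foxn3 had 8 and 3 and foxo4 4 and 0, while tbx22 had 1 and 4. The annotated foxn3 gene is longer on L (8L:77234795 to 77398083) than on S (8S:21880403 to 21948797).

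The MHC region, where genes of antigen presentation lie among unrelated ones, had end peaks at 24 of 43 genes on 8L and 17 of 29 on 8S, with distal peaks within 10 kb at 17 and 8, beside 47.5% and 39.4% of all protein-coding genes. For the genes of this list over the genome, these shares were 55.0% and 37.5%. In 24 pairs L had more in 8, S in 4 and 12 were equal. Over all homeolog pairs of chromosome pair 8 these shares were 44.4%, 23.1% and 32.5%. Several immune genes had none called: tap1.L, tap2.L, psmb8.L, psmb9.S and both copies of tapbp, a tapasin gene, had 0 peaks within 10 kb, as had both copies of cfb, a complement gene. ltb, a cytokine gene, had 4 at L and 1 at S. Among the other genes of the region ppp1r10, a phosphatase regulator gene, had 6 and 3.

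Housekeeping groups were covered on both chromosomes. In the ribosomal protein list, end peaks stood at 8 of 9 genes on 8L and 6 of 6 on 8S. This list also took in rps6kl1.L, with 0 end peaks, and rps6ka5.L, with 2, which are ribosomal S6 kinase genes. Its other genes on 8L all had an end peak. For splicing and RNA binding the counts were 10 of 14 and 5 of 8. For mitochondrial ribosomes and the respiratory chain they were 6 of 10 and 8 of 11. For ubiquitin and the proteasome they were 10 of 15 and 7 of 12. All stand again beside 47.5%. Over the genome the shares of these lists, in the same order, were 76.6%, 81.1%, 75.0% and 79.7%. In the ubiquitin and proteasome group S had more peaks in 5 of 10 pairs and L in 2. Beside this and the next list, 23.1% of all pairs of chromosome pair 8 had more at S and 44.4% at L. In the list of cell cycle and DNA replication genes both pairs, cdk9 and ccnb3 (3 and 0), had more at L. Of these, cdk9 encodes the kinase of paused RNA polymerase II described above. Of its 13 peaks at L, 9 were also counted for sh2d3c. Proteins of late organs had end peaks at 7 of 23 genes on 8L and 2 of 16 on 8S. This was below the 47.5% of all protein-coding genes, while 22.8% of the genes of this list had one over the genome. By peaks within 10 kb, the list was led on 8L by the collagen genes col4a5.L, with 6, and col4a6.L, with 4, and by gria3.L, a glutamate receptor gene, with 4. The windows of the neighbours col4a5.L and col4a6.L overlap, so that a peak can be counted for both.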

How the data were processed

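ATAC-seq was measured in animal caps of stages 8 and 9 (11 libraries), and only the pooled stage 9 peak list was analysed. The authors aligned pairs to v10.1 with Bowtie2 2.4.2, kept uniquely mapping short fragments, and ran MACS2 2.2.7.1 with no-antibody CUT&RUN libraries as control (study methods). The submitters' processing notes also name bedtools 2.30.0. Reads that fit L and S alike were removed, so near-identical places can lack peaks. Its deposited columns are fold enrichment (a ratio over local background), −log10 p, −log10 q and a score, which were used to describe and filter peaks.

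Fragments at each summit were recovered by inverting fold and p together, within a relative tolerance of 0.0001, for 4485 of 4485 members. RefSeq gene ends were used, and homeologs were genes with 1 .L and 1 .S copy on the chromosomes of 1 pair (7759 in all). Blocks were broken where the S order jumped by over 15 genes. Ratios have exact Clopper-Pearson and shares Wilson intervals of 95%, from Python 3.11.15 with scipy 1.17.1. The counting was tested on simulated peaks. Named genes were the 8 pairs furthest towards L and towards S, those at the 5 strongest peaks of each chromosome, at the 6 and 4 intervals furthest towards L and S, 6 and 4 genes on a single subgenome, sox3, pou5f3 and gene lists. Some items that this rule names are not reported here. The genes ensa, mcl1, eif2s1, ccn1l, lmo4.2 and tbc1d25 at large groups of peaks were named after their values were seen. The members and lists were chosen with earlier results of these data known. Blocks, height bins, interval classes and peak groups were defined after the data were seen. No sequence is shown, as no genome was used here.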

Additional observations from a re-analysis of the deposited data

How the results depend on the processing

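No paired analysis was possible because the deposited list pools all replicates. Every alternative kept 8L above 8S in the 58 values computed for the results on density, genes, shared intervals, homeolog pairs and position, and 40 of them stayed within the counting interval of the main value. For position the value was the share of bins with more peaks on 8L, which was 22 of 23 with bins of 5 Mb. For peaks per gene and end peaks at a single copy, the intervals of some alternatives included no difference. With peaks of −log10 q of at least 10, the ratio was 1.56 for peaks per Mb, 2.36 for distal peaks per Mb, 1.24 per protein-coding gene, 2.02 in shared intervals and 1.69 per Mb in them, and the percent of pairs with more peaks within 10 kb at L minus that at S was 13.7 points. With peaks of at least the median fold enrichment, the distal ratio was 1.65 and the difference in end peaks at a single copy 7.99 points, whose interval of 3.49 to 12.2 excludes 0. Without the limit of 5 Mb, the ratios were 1.39 per Mb and 1.11 per gene. Without the block from mbd1 to rapgef1, they were 1.46 per Mb and 1.71 for distal peaks, and without that from arhgap5 to nectin4 1.15 per gene. Per named gene the ratio was 1.14 (1.07 to 1.21), so whether 8L has more peaks per gene depends on which genes are counted. Intervals bounded by facing gene ends gave 1.92, and those without the 10 largest leads 1.62. A window of 20 kb gave 28.3 points, and pairs with copies within 5% of each other in length gave 8.33 points for end peaks. The blocks and the 10 intervals left out were chosen after seeing the data. The cause of these shifts was not tested. Low depth limits the rest, as the median peak rests on 9 fragments.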
